A study of Homo sapiens with 8 samples.

Results

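Nucleolar ribosome assembly factors are the proteins that transcribe, modify, fold and trim ribosomal RNA in the nucleolus. The 60 genes examined here encode subunits of RNA polymerase I, core proteins of small nucleolar ribonucleoproteins (snoRNPs), nucleolar chaperones, proteins of the small-subunit processome and factors of small- and large-subunit maturation. They were chosen by name and by these textbook roles, with no measured value in the rule but with earlier results of these data known. They were found as 60 of the 58735 genes of the count table. All 60 also passed the filter on low counts, among 14621 genes tested.

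The libraries were 8 RNA-seq libraries of cells labelled A549, a human non-small cell lung cancer line. The EV group (4 libraries) carried an empty lentiviral vector and the KRT19 group (4 libraries) a lentiviral vector for Flag-tagged KRT19, and both were made into stable lines by puromycin selection. Keratin 19, the product of KRT19, forms intermediate filaments in epithelia. The sources do not say how many transductions each group holds or that the replicates were separate cultures, so p-values measure the spread between these libraries, which may be technical, and a difference between the lines that is not due to the vector cannot be told apart from one that is. Total counts were 14073065 to 17054364 per library. KRT19 itself had 1 to 5 counts in the EV libraries and 4353 to 5147 in the KRT19 libraries (log2 fold change 10.75 ± 0.12, SE, edgeR adjusted p = 5.19e-20), as the labels say. Markers did not match the A549 label throughout. The epithelial keratins KRT8 and KRT18 had 2988 to 5746 counts per library, but EPCAM had 0 to 3 and CDH1 0 to 1, and CDKN2A, a gene known to be deleted in A549, had 1328 to 1824 counts in every library. The label text on extraction names retina, and of 9 listed retinal genes 6 had at most 3 counts in every library, RCVRN and SAG among them with 0, while PAX6 had 15 to 40 and ARR3 5 to 22.

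Ribosome production starts when RNA polymerase I transcribes a long precursor of ribosomal RNA. Box C/D and box H/ACA snoRNPs guide its methylation and pseudouridylation, and the U3 snoRNP nucleates the processome, which folds the 18S part and sets up its first cleavages. Large-subunit precursors follow their own path, with GTPases and RNA helicases that remodel the particle before it leaves the nucleolus. Many of these genes are textbook targets of MYC, a transcription factor of growing cells that binds the E-box letters CACGTG.

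The promoters are shown first, because a short sequence that had no part in choosing the genes occurred there in 23 of the 49 genes with a window. Promoter windows of RefSeq (GRCh38.p14), from 250 bases before to 50 bases after an annotated start, were matched by symbol for 49 of the 60 genes, in 56 windows. The letters CACGTG, which read the same on both strands, were in 24 of these 56 windows (42.9%). Over all protein-coding genes tested they were in 9.37% of windows and over all RefSeq windows in 7.26%. The share was 21.9% for windows of other ribosome assembly factors and 5.13% for those of the cytosolic ribosomal proteins. The letters CCGGAAG, a core of ETS factor sites searched on both strands, were in 35.7% of the members' windows, 16.8% of those of protein-coding genes tested, 46.5% of those of other assembly factors and 33.3% of those of ribosomal proteins, while CCAAT, also searched on both strands, was in 41.1% and 34.6%. Of the 27 E-boxes counted in the members' windows, 22 (81.5%) lay within 50 bases of the start, against 38.4% for the E-boxes of protein-coding genes tested. A match of letters is a description of these windows and not evidence of binding.

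The following 6 are shown because the genes had the E-box and an unadjusted p under 0.05 between EV and KRT19. The first pair are whole windows of 300 bases and the others are the E-box with 20 bases on each side, 5′ to 3′ on the gene's strand, with the E-box in capitals.
GNL3 (chr3:52685782-52686081, plus strand): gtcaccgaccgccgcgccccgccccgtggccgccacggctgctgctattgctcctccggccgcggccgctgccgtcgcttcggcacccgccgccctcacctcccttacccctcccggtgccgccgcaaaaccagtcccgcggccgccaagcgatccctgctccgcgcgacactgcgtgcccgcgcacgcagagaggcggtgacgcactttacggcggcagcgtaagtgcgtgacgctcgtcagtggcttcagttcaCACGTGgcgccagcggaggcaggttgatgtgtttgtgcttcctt
WDR43 (chr2:28894417-28894716, plus strand): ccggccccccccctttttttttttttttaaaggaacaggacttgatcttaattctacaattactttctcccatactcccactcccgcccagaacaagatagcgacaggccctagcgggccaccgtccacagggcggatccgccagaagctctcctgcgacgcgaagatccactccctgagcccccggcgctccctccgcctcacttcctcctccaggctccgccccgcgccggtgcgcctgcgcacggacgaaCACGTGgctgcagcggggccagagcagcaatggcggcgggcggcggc
DDX21 (chr10:68956596-68956641, plus strand): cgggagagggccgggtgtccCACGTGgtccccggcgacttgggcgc
GNL2 (chr1:37595909-37595954, minus strand): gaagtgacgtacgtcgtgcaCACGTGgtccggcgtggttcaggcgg
IMP4 (chr2:130342892-130342937, plus strand): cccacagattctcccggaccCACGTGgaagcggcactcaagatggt
NOL6 (chr9:33473886-33473931, minus strand): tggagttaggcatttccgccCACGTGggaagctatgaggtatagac
The E-box began at position 7 in GNL3, 4 in WDR43, -31 in DDX21, 4 in GNL2, 16 in IMP4 and 14 in NOL6, counted from 1 at the annotated start. In IMP4 a second E-box began at position -203. The 23 members with an E-box had a median log2 fold change of 0.085 and the 26 without one a median of 0.080. Of them 6 and 4 were higher at an unadjusted p under 0.05, against 2.85% of all genes tested. Groups did not overlap in 3 and 4, against 1.63%. With the GC and length trends removed, as described below, 8 and 9 were higher at such a p, against 4.48%. Members without a window are not in these counts.

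The comparison of KRT19 with EV asks whether the assembly factors differed in level between the vector-control cells and those overexpressing keratin 19. The data showed small differences, nearly all towards higher counts in the KRT19 group. The log2 fold change was above 0 for 55 of the 60 genes and below 0 for 5, with a median of 0.090, where 52.2% of all genes tested were above 0 and their median was 0.005. In edgeR's quasi-likelihood test 18 genes (30.0%) were higher at an unadjusted p under 0.05, against 2.85% of all genes tested, and 0 were lower, against 2.56%. In either direction 5.41% of all genes tested had such a p. In 8 genes (13.3%) each KRT19 library was above each EV library, against 1.63% of all genes tested, and in 0 genes each was below, against 1.81%. None of the 60 passed the adjusted threshold, which KRT19 alone of all genes tested did (0.00684%), and the smallest adjusted p of a member was 0.660. The single differences are therefore given below as values and not as changes. In bulk libraries, more RNA per cell and a larger share of cells that hold the RNA cannot be told apart.

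**Figure D1:**
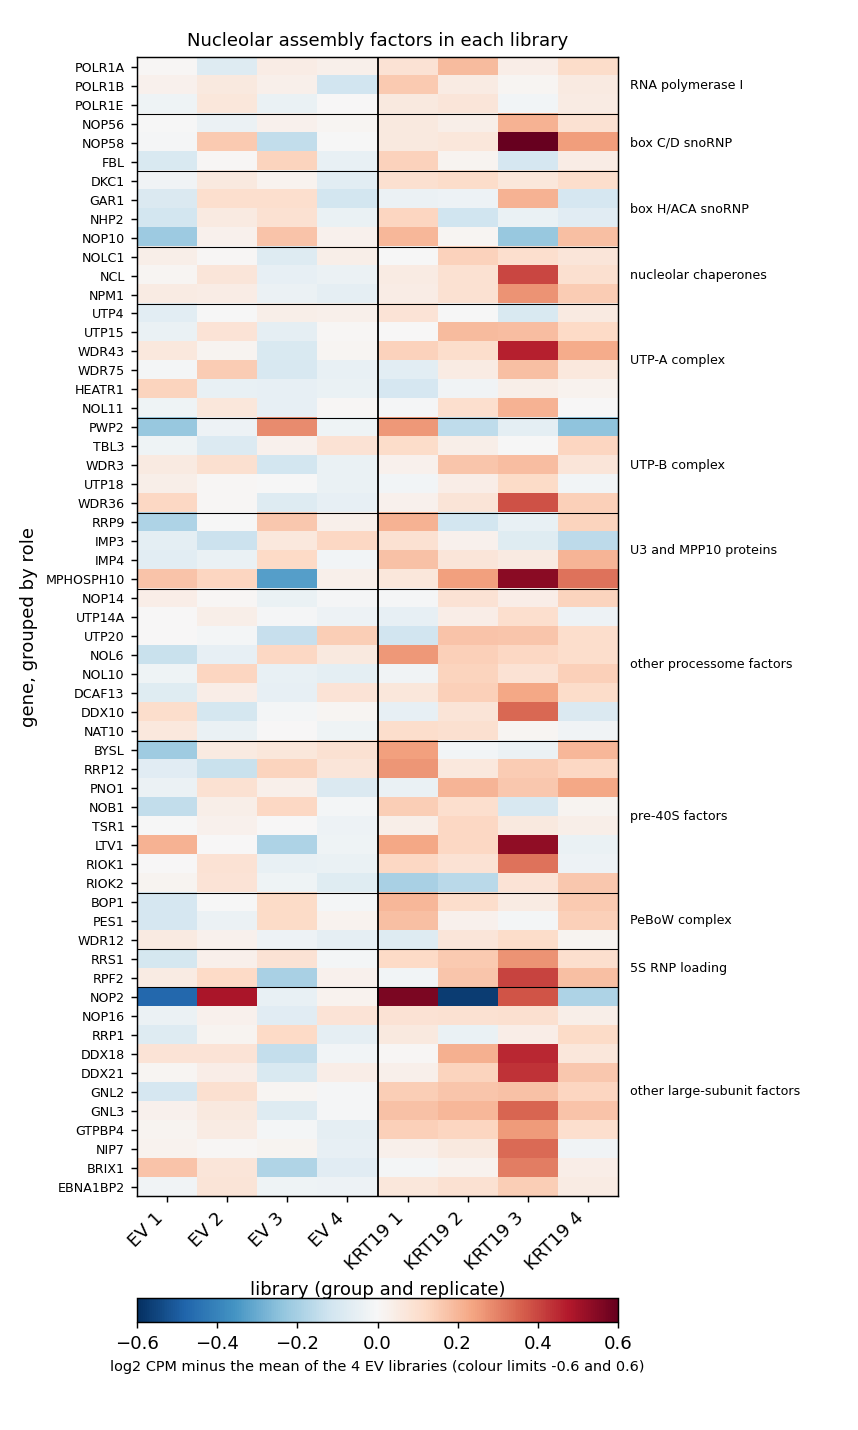
Heat map of log2 CPM (counts scaled to a common library size by TMM) of the 60 genes in each of the 8 libraries, minus the mean of the 4 EV libraries of the same gene, with genes ordered by role. KRT19 replicate 3 holds the strongest red, and NOP2, with 6 to 18 counts per library, varies most.

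Levels per kilobase of exon spanned a wide range within the EV group. NPM1 was the highest, at 576 CPM per kilobase, followed by NOP10 at 296, FBL at 293 and NCL at 135. DDX10 was at 3.80, UTP15 at 4.08 and RIOK2 at 4.22. NOP2, a methyltransferase of 28S ribosomal RNA, was far under these, at 0.153 CPM per kilobase. Its counts were 6 to 18 per library, 54.4% of its exon bases overlap the gene AC006064.6 on the same strand, and AC006064.6 had 0 to 1 counts. The level of NOP2 is therefore uncertain and no difference could be read from it (95% interval of the log2 fold change from -0.63 to 0.83).

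RNA polymerase I was represented by 3 subunit genes, and none had an unadjusted p under 0.05. POLR1E, the one with the highest level per length, was at 79.9, 85.3, 79.1 and 81.6 CPM in EV replicates 1 to 4 and at 84.8, 85.8, 80.5 and 84.2 in KRT19 replicates 1 to 4. The groups overlapped, and the log2 fold change was 0.040 (95% interval from -0.069 to 0.15). POLR1A, the catalytic subunit, was at 0.11 ± 0.053 (SE) and POLR1B at 0.067 ± 0.057.

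Among box C/D proteins, which carry the guide RNAs for ribose methylation, the scaffold gene NOP58 stood out by size. NOP58 (chromosome 2, 202265716 to 202303666, plus strand) was at 97.8, 109, 88.5 and 98.1 CPM in the EV libraries and at 102, 103, 158 and 117 CPM in the KRT19 libraries. Only KRT19 replicates 3 and 4 were above all EV libraries. The log2 fold change was 0.29 ± 0.11 (SE), and without KRT19 replicate 3 it was 0.12. Its partner NOP56 did not overlap between the groups, with 244 to 254 CPM in EV and 256 to 289 in KRT19, and differed by 7.28%. FBL, the methyltransferase fibrillarin, differed by 1.74%, with 597 to 698 CPM in EV and 594 to 701 in KRT19.

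The 4 box H/ACA genes had the lowest median of the 12 roles, 0.029. DKC1, the pseudouridine synthase dyskerin, was at 203, 214, 209 and 197 CPM in EV and at 219, 222, 215 and 221 in KRT19, so that the groups did not overlap, and the difference was 6.73%. NOP10 was at 140.0 to 183 CPM in EV and 139.5 to 187.5 in KRT19. NHP2 was among the 5 genes below 0, at 109 ± 6.89 CPM (SD, n = 4) in EV and 107 ± 8.12 in KRT19 (95% interval of the log2 fold change from -0.16 to 0.11). It overlaps the gene RMND5B on the opposite strand in 27.4% of its exon bases. GAR1 differed by 0.857%, a log2 fold change of 0.012 that was -0.060 without KRT19 replicate 3.

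The nucleolar chaperones included NPM1, nucleophosmin, the member with the highest level. NPM1 was at 2284, 2271, 2149 and 2122 CPM in EV and at 2272, 2348, 2662 and 2450 in KRT19. KRT19 replicate 1 lay inside the EV range and the other three above it, and NPM1 was higher by 10.3% (edgeR unadjusted p = 0.0145, adjusted p = 0.906). Part of the NPM1 transcripts, 12.3% of their 75-base words, also occurs in other genes, among them 15 pseudogenes, so its counts are uncertain to that extent. NCL, nucleolin, was at 943, 986, 906 and 914 CPM in EV and at 969, 998, 1237 and 1003 in KRT19. KRT19 replicate 3 was apart from the other three, and without it the log2 fold change of NCL went from 0.17 to 0.079. NOLC1, a snoRNP chaperone, was at 266 ± 9.44 CPM (SD, n = 4) in EV and 281 ± 11.6 in KRT19.

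The UTP-A proteins bind the nascent precursor first. WDR43 (chromosome 2, 28894643 to 28948222, plus strand), a UTP-A subunit with WD40 repeats, was at 69.9, 67.7, 62.9 and 67.6 CPM in EV and at 73.8, 72.0, 92.5 and 78.3 in KRT19. Each KRT19 library was above each EV library. WDR43 was higher by 18.2% (log2 fold change 0.24 ± 0.072, SE, edgeR unadjusted p = 0.00386, adjusted p = 0.868), and by 0.16 on the log2 scale without KRT19 replicate 3. HEATR1, the largest protein of the complex, differed by -0.017 on the log2 scale and NOL11 by 0.079 (0.033 without KRT19 replicate 3), with overlapping groups in both. HEATR1 overlaps the gene LGALS8 on the opposite strand in 23.2% of its exon bases. UTP15, WDR75 and UTP4 were at 0.13, 0.057 and 0.012.

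Of the 5 UTP-B genes, WDR36 had an unadjusted p under 0.05. WDR36 was at 54.6, 50.4, 47.5 and 48.4 CPM in EV and at 51.0, 52.8, 65.3 and 55.3 in KRT19, and its log2 fold change of 0.16 was 0.080 without KRT19 replicate 3. PWP2 had the most negative value of all 60, -0.047, with a wide interval from -0.27 to 0.17. A near copy, FP565260.1, shares 83.6% of the 75-base words of PWP2, so reads of PWP2 may have been lost or split in counting. FP565260.1 had 6 to 11 counts in the EV libraries and 9 to 13 in the KRT19 libraries, and PWP2 had 706 to 1117 per library. UTP18 was at 114 ± 2.54 CPM (SD, n = 4) in EV and 117 ± 5.17 in KRT19, and WDR3 and TBL3 were at 0.11 and 0.069 on the log2 scale.

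The U3 and MPP10 proteins held the member with the highest fold change. MPHOSPH10 (chromosome 2, 71130314 to 71150101, plus strand), the scaffold of the MPP10 complex, was at 32.2, 31.3, 22.8 and 29.2 CPM in EV and at 30.0, 34.0, 41.7 and 35.9 in KRT19. KRT19 replicate 1 lay inside the EV range, and EV replicate 3 was the lowest library. The log2 fold change was 0.30 ± 0.11 (SE, edgeR unadjusted p = 0.0120, adjusted p = 0.906). IMP4, which binds MPHOSPH10, was at 141 ± 8.29 CPM (SD, n = 4) in EV and 155 ± 8.09 in KRT19. IMP3, the third protein of that complex, differed by -0.030 on the log2 scale, and 59.3% of its exon bases overlap genes on the opposite strand. RRP9, a U3 protein, was at 0.047.

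Among the 8 other processome genes all values were above 0, against 52.2% of all genes tested. Of the 8, 2 were higher at an unadjusted p under 0.05, against 2.85%. NOL6 was at 42.3, 44.8, 50.6 and 48.3 CPM in EV and at 55.5, 51.2, 50.7 and 49.9 in KRT19. EV replicate 3 reached into the KRT19 range. DCAF13 was at 95.2 ± 4.83 CPM (SD, n = 4) in EV and 105 ± 5.25 in KRT19. NOP14, which had the highest level per length of this role, overlapped between the groups, at 119 ± 2.77 and 125 ± 5.27 CPM. UTP20, NOL10, DDX10, NAT10 and UTP14A were between 0.017 and 0.084 on the log2 scale.

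The 8 pre-40S factors finish the small subunit. RRP12, an export factor of the particle, was at 60.03, 57.4, 69.1 and 66.3 CPM in EV and at 75.8, 65.8, 70.03 and 68.7 in KRT19, and it was higher by 10.9% with overlapping groups. TSR1 differed by 4.41%, but its groups did not overlap, with 147 to 153 CPM in EV and 154 to 164 in KRT19. Of the exon bases of TSR1 20.8% overlap genes on the opposite strand. BYSL, with the highest level per length of this role, was at 63.6 ± 5.97 CPM (SD, n = 4) in EV and 68.1 ± 6.82 in KRT19, and its log2 fold change of 0.099 was 0.034 without EV replicate 1 and 0.048 without KRT19 replicate 1. LTV1 had a log2 fold change of 0.23 ± 0.11 (SE) that rested on 225 to 386 counts per library and was 0.11 without KRT19 replicate 3, and 34.8% of its exon bases overlap other genes on the same strand. The kinase RIOK2 was below 0, at -0.022, while its relative RIOK1 was at 0.13. PNO1 and the nuclease NOB1 were at 0.14 and 0.040.

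In the PeBoW complex, which processes the 28S precursor, BOP1 was at 122.6, 130.9, 142.0 and 130.3 CPM in EV and at 151, 141, 136 and 146 in KRT19, higher by 9.11%. PES1 and WDR12 were at 0.085 and 0.032 on the log2 scale. Both genes of the 5S RNP loading step were higher at an unadjusted p under 0.05, against 2.85% of all genes tested. RRS1 overlaps the gene AC009879.2 on the same strand in 11.4% of its exon bases. It was at 38.9, 42.7, 44.4 and 41.5 CPM in EV and at 45.5, 46.6, 50.4 and 44.9 in KRT19. The groups did not overlap, and RRS1 was higher by 11.9%. RPF2, its partner, was higher by 13.9%, but KRT19 replicate 1 lay inside the EV range.

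The other large-subunit factors held 11 genes, all above 0, against 52.2% of all genes tested. Of the 11, 5 were higher at an unadjusted p under 0.05, against 2.85%. In 3, all nucleolar GTPases, the groups did not overlap, against 1.63%. GNL3 (chromosome 3, 52681156 to 52694492, plus strand), known as nucleostemin, had the smallest p of the 60 members and the 25th smallest of all genes tested. It was at 69.4, 71.1, 64.7 and 67.9 CPM in EV and at 77.1, 78.4, 87.1 and 76.8 in KRT19. The lowest KRT19 library was above the highest EV library, and GNL3 was higher by 16.98% (log2 fold change 0.23 ± 0.058, SE, edgeR unadjusted p = 0.00115, adjusted p = 0.660). GNL2 (chromosome 1, 37566816 to 37595935, minus strand) was at 80.3, 92.1, 86.7 and 85.7 CPM in EV and at 95.4, 96.6, 97.4 and 94.2 in KRT19. Here the KRT19 libraries were close together, and the difference was 11.2%. GTPBP4 (chromosome 10, 988019 to 1019936, plus strand) was at 113, 115, 111 and 107 CPM in EV and at 124, 122, 133 and 120 in KRT19, higher by 11.7%, and 19.1% of its exon bases overlap genes on the opposite strand.

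The remaining genes of this role with an unadjusted p under 0.05 encode RNA helicases. DDX21 was at 313, 319, 291 and 318 CPM in EV and at 317, 340, 419 and 347 in KRT19. DDX18 was at 68.0, 68.1, 58.2 and 63.5 CPM in EV and at 64.5, 74.6, 88.1 and 67.4 in KRT19. In both helicases KRT19 replicate 3 was the highest library and EV replicate 3 the lowest, and without KRT19 replicate 3 their log2 fold changes went from 0.20 to 0.11 and from 0.19 to 0.095. EBNA1BP2, which had the highest level per length of this role in the EV group, was at 238 ± 8.88 CPM (SD, n = 4) in EV and 254 ± 7.36 in KRT19. NOP16, RRP1, NIP7 and BRIX1 lay between 0.043 and 0.11 on the log2 scale.

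**Figure D2:**
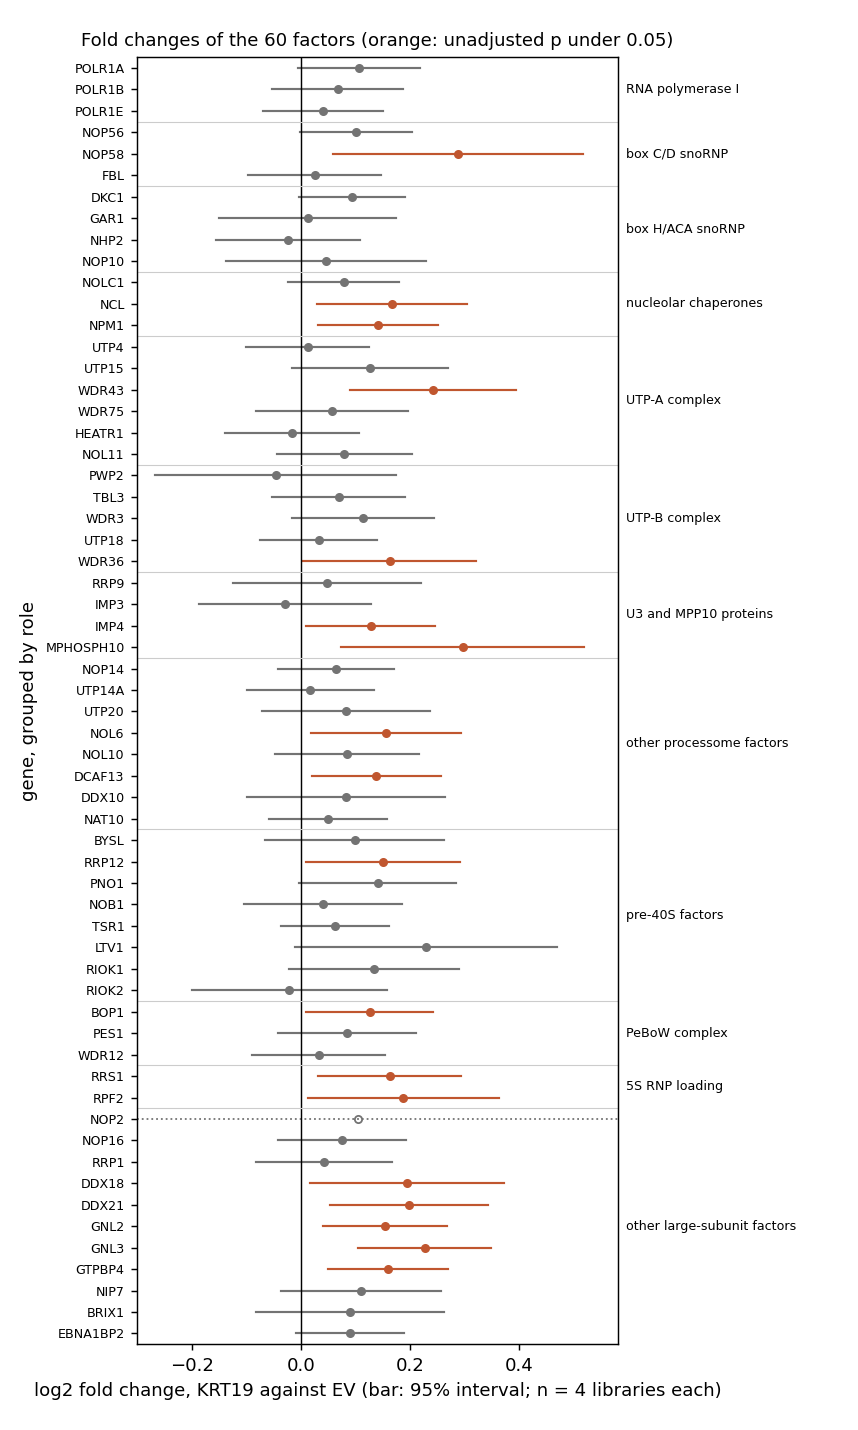
Log2 fold change of KRT19 against EV for each of the 60 genes, with 95% intervals from edgeR, ordered by role. Of the 60 points, 55 lie to the right of 0, the 18 in orange have an unadjusted p under 0.05, and the dotted line of NOP2 stands for an interval wider than the axis.

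In an exact, two-sided permutation test of the labels, the smallest p that 4 libraries against 4 allow is 0.0286. Groups that do not overlap have this p by construction, so it adds nothing to the lack of overlap. The 8 genes without overlap were NOP56, DKC1, WDR43, TSR1, RRS1, GNL2, GNL3 and GTPBP4. GNL3, WDR43, GTPBP4 and GNL2 kept an unadjusted p under 0.05 in all 18 alternative analyses.

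The mean log2 CPM of the 60 genes gives 1 level per library. It was 6.25, 6.31, 6.26 and 6.26 in EV replicates 1 to 4 and 6.35, 6.34, 6.43 and 6.34 in KRT19 replicates 1 to 4. The groups did not overlap, and KRT19 replicate 3 was apart from the other three. The difference of the group means was 0.096, against SDs of 0.025 in EV and 0.045 in KRT19. Counted gene by gene, 44 to 50 of the 60 were above their EV mean in each KRT19 library, against 24 to 44 in the EV libraries. KRT19 replicate 3 was the highest library for 29 of the 60 genes, and EV replicate 3 was the lowest for 21.

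Related lists were set beside these genes. Of the other ribosome assembly factors that were tested, 14 (12.5%) were higher at an unadjusted p under 0.05, against 2.85% of all genes tested. At that p 0 were lower, against 2.56%. Of these factors 89 were above 0, with a median log2 fold change of 0.051 over the list, while 23 were below 0. Their lowest p belonged to DNTTIP2, a processome factor, at 78.6 ± 2.60 CPM (SD, n = 4) in EV and 88.9 ± 4.58 in KRT19, then to ZNHIT6, a box C/D assembly factor, at 32.0 ± 1.97 and 38.7 ± 6.22, and to TCOF1, treacle, which works with RNA polymerase I, at 229 ± 5.76 and 255 ± 19.5. Without KRT19 replicate 3 the log2 fold change of ZNHIT6 went from 0.28 to 0.15 and that of TCOF1 from 0.16 to 0.10. The lowest p among those below 0 belonged to ZNHIT3, NOPCHAP1 and POLR1D, at -0.11, -0.11 and -0.057 on the log2 scale, and none of these p was under 0.05. The 79 cytosolic ribosomal protein genes, the products that the factors assemble, were not higher as a list. Their median was -0.010, 32 of 79 were above 0 and 0 had an unadjusted p under 0.05 in either direction, against 5.41% of all genes tested. Ribosomal protein genes share sequence with many pseudogenes, so their counts are uncertain. Genes of the S phase, of which 42 were tested, had a median of 0.092, with 41 above 0. At an unadjusted p under 0.05, 9 (21.4%) of the S phase genes were higher, against 2.85% of all genes tested, and 0 lower, against 2.56%. The S phase level was 6.10 to 6.18 log2 CPM in the EV libraries and 6.19 to 6.32 in the KRT19 libraries, so it moved with the assembly factors, and its part in their difference was not tested. All lists use the same 8 libraries, and no test set one list against another.

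**Figure D3:**
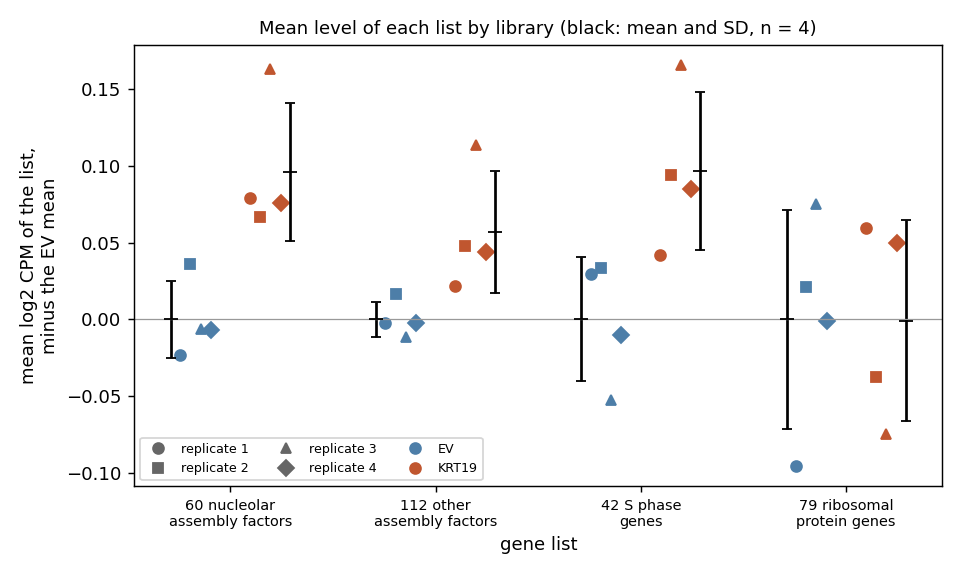
Mean log2 CPM of each gene list in each library, minus the mean of the EV libraries, with the library number as the symbol and mean and SD (n = 4) in black. The assembly factors and S phase genes lie higher in the KRT19 group, with replicate 3 (triangle) highest, while the ribosomal protein genes overlap fully and have KRT19 replicate 3 as their lowest KRT19 library.

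**Figure D4:**
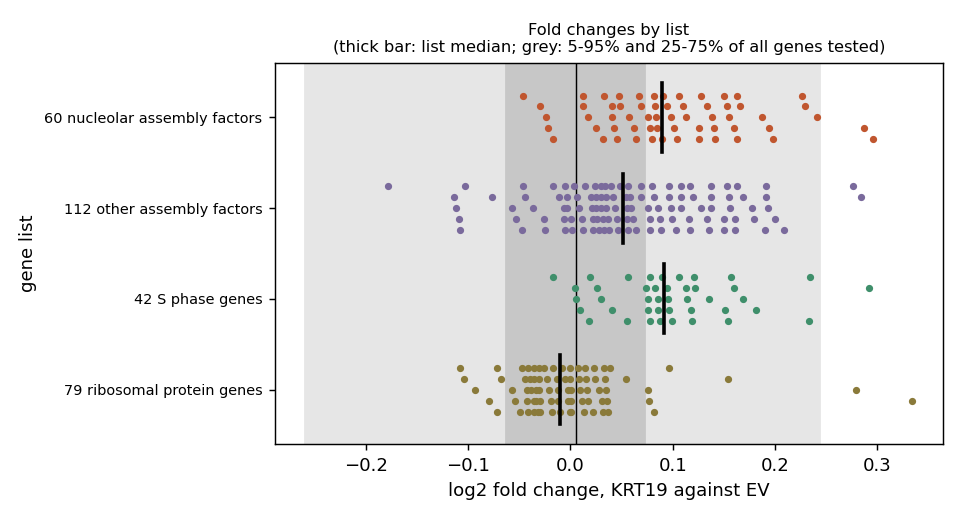
Log2 fold change of KRT19 against EV for each gene of the 4 lists, with the list median as a thick bar and the ranges of all genes tested in grey. The median of the 60 assembly factors, 0.090, is above the 75th percentile of all genes, 0.073, while only 2 of them exceed the 95th percentile, 0.24.

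The deviations of single libraries from their group mean followed the GC content of the genes. Over the 60 members the correlation of this deviation with GC percent was 0.71 in EV replicate 3 and in KRT19 replicate 1, -0.60 in EV replicate 1 and -0.57 in KRT19 replicate 3. In the other 4 libraries it was between -0.30 and 0.29. These are descriptions over 60 genes of the same library, and over all genes tested the correlations were from -0.37 to 0.32. The log2 fold change of the members went with GC as well, with a correlation of -0.34. In the 30 members of lower GC (36.5% to 47.1%) the median log2 fold change was 0.13 and 12 were higher at an unadjusted p under 0.05, and in the 30 of higher GC (47.2% to 65.2%) it was 0.077 and 6, against 2.85% of all genes tested.

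**Figure D5:**
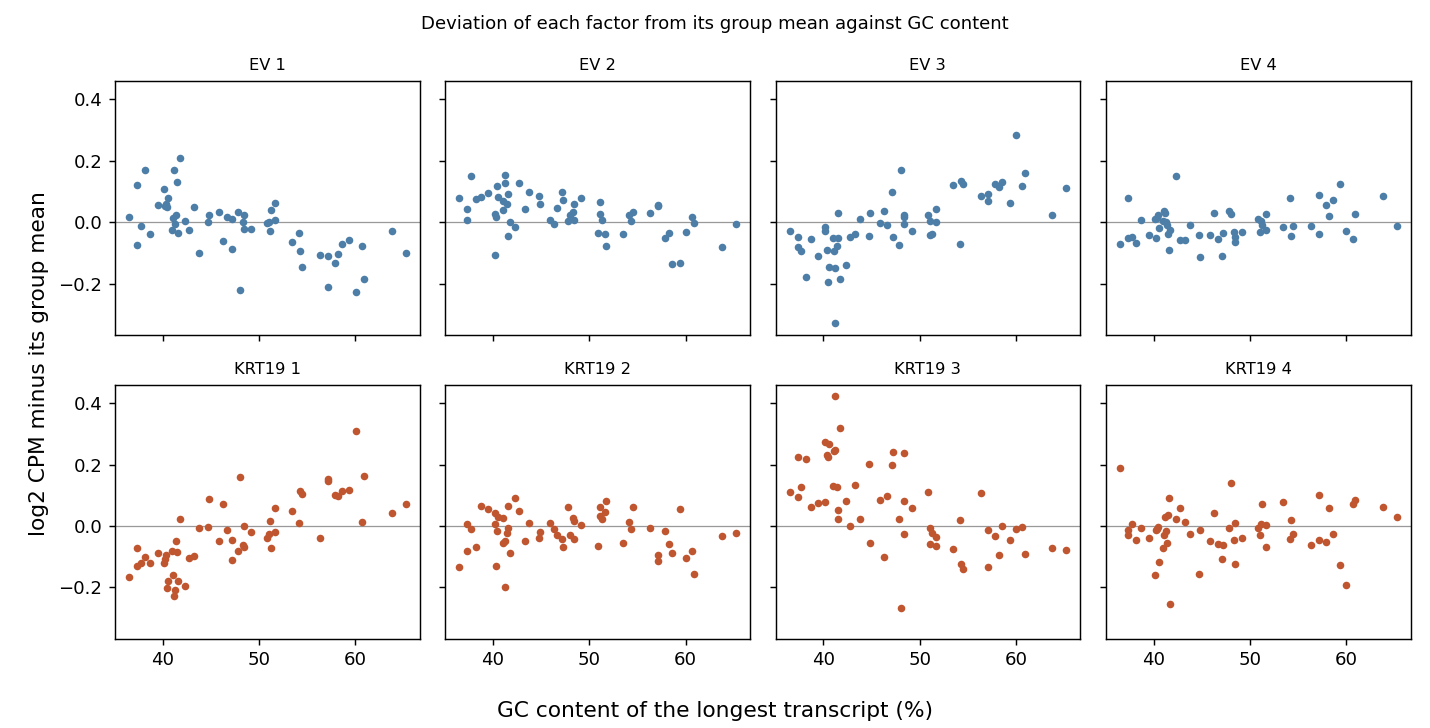
Deviation of each gene's log2 CPM from its group mean against the GC percent of its longest transcript, 1 panel per library (NOP2 left out because of its low counts). Points slope up in EV replicate 3 and KRT19 replicate 1 and down in EV replicate 1 and KRT19 replicate 3.

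With GC content and gene length trends removed in each library, the correlation of the members' fold changes with GC was -0.027 and the medians of the lower and higher GC genes were 0.081 and 0.095. The median of all 60 was then 0.093, with 54 above 0. At an unadjusted p under 0.05, 25 were higher, against 4.48% of all genes tested, and 16 had groups that did not overlap, against 2.74%. Of the 18 genes at that p without the correction 17 were also there with it, the exception being DCAF13, and DKC1, EBNA1BP2, NOLC1, NOP56, PES1, POLR1A, RIOK1 and TSR1 were added. The smallest adjusted p was 0.0895, that of GNL3, so none of the 60 passed the adjusted threshold with the correction either.

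Left out in turn, no library brought the median of the 60 genes under 0.080. Without KRT19 replicate 3, 14 of the 60 were higher at an unadjusted p under 0.05, against 2.49% of all genes tested, of which 11 were among the 18, and the values of WDR43, DDX21, NOP58, NCL, DDX18, RPF2 and WDR36 were smaller by over 1.5 times. So were those of NOP56, WDR75, NOL11, UTP18, UTP20, LTV1, RIOK1, WDR12, NIP7 and BRIX1, which had no such p. GAR1, DDX10, UTP14A and NOP2 were then below 0, at -0.060, -0.021, -0.012 and -0.0074 on the log2 scale. The values of FBL, NOP10, UTP4, RRP9 and NOB1 were larger by over 1.5 times. Without KRT19 replicate 3, 51 of the 60 were above 0, and without EV replicate 1, 49 were. Without EV replicate 4 the number was 11, against 2.18%, and without KRT19 replicate 1 17 members did not overlap between the groups, against 3.91%. With both libraries numbered 3 left out the median was 0.066 and 16 genes had an unadjusted p under 0.05, against 3.99% of all genes tested, but DDX21, MPHOSPH10, NPM1, NOP58, NCL, DCAF13, DDX18, RPF2 and WDR36 no longer did, while FBL and NOP10 then had log2 fold changes of 0.11 and 0.19 (edgeR unadjusted p = 0.0180 and 0.00348). The 42 members with under 10% of shared sequence or exon overlap had a median of 0.092, with 41 above 0, against 52.2% of all genes tested with all 8 libraries, and 15 higher at an unadjusted p under 0.05, against 2.85%.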

How the data were processed

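RNA-seq was compared between 4 EV and 4 KRT19 libraries, grouped by sample titles. Raw counts of reads per gene, without normalization, are what the authors deposited, in 1 table. Per the labels, the processing notes name Bowtie 0.12.2, featureCounts 1.5.0-p3, DESeq2 and hg38, without roles or order. The strand setting and the treatment of shared reads are not given in the sources used here, so overlapping genes and near copies carry uncertain counts. All 58735 gene identifiers, positions and lengths equalled those of GENCODE 29.

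Genes were kept by filterByExpr (14621) and compared with edgeR 4.0.16 in R 4.3.3, using TMM scaling, glmQLFit and glmQLFTest on the group alone, two-sided, with Benjamini-Hochberg adjustment over all genes tested and a threshold of 0.05. CPM used TMM-scaled library sizes, and log2 CPM a prior count of 2. Single values were compared by exact permutation in SciPy 1.17.1. Shared sequence was counted in 75-base words of GENCODE 29 transcripts, and GC content is that of the longest transcript. The procedure was tested on simulated data.

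Members and lists were chosen with earlier results of these data known. Named members were those with an unadjusted p under 0.05, in each role the one with the highest level per length and the most negative one, and the 3 other factors of lowest p in each direction. The remaining members were named after their values were seen. Floors (3 counts) cover counting error only. Alternatives were DESeq2 size factors, upper-quartile scaling, the DESeq2 1.42.0 Wald test, voom in limma 3.58.1 with library quality weights, a filter of at least 1 count, one of 5 CPM in 4 libraries, a block by replicate number, GC and length trends removed (splines of 5 degrees of freedom), both together, and each library left out. After seeing the data, 2 were added, both libraries numbered 3 left out and members of little shared sequence.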

Additional observations from a re-analysis of the deposited data

Results flagged for a closer look

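Of 94 groups of 4 libraries examined for 1 library apart from the rest, 5 stood out, and chance gives about 5% of groups. The value in each case is the gap to the nearest library as a share of the group's whole range. The mean log2 CPM of the 60 assembly factors in the KRT19 group had its highest library, replicate 3, at 6.43 against 6.34 to 6.35 in the other three, a gap of 0.870 of the range. NCL had the same library highest, at 10.27 against 9.92 to 9.97 log2 CPM, a gap of 0.861. In the EV group HEATR1 had replicate 1 highest, at 6.41 against 6.22 to 6.24, a gap of 0.925. BYSL had EV replicate 1 lowest, at 5.78 against 6.04 to 6.08, a gap of 0.875. EBNA1BP2 had EV replicate 2 highest, at 7.98 against 7.87 to 7.88, a gap of 0.894.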

How the results depend on the processing

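The median of the 60 assembly factors stayed above 0 and 0 members were lower at an unadjusted p under 0.05 in each of the 18 alternatives that refit the libraries. Past the adjusted threshold, 1 gene of all tested by edgeR, there were 5 with the DESeq2 Wald test, 8 with limma-voom and library quality weights together, 71 with the filter of at least 1 count, 5 with the GC and length correction, also with the block, 8 with both libraries numbered 3 left out, and 1 to 5 with 1 library left out, with 3 without EV replicate 1 and 5 without KRT19 replicate 3. With the filter of at least 1 count, which tests 30250 genes, 2 members passed, both higher in KRT19, NOP58 (adjusted p = 0.00184) and MPHOSPH10 (adjusted p = 0.0443), where 0.126% of those genes passed in that direction, and the cause was not tested. Over the alternatives their adjusted p ran from 0.00184 to 1.00 and from 0.0443 to 0.999.

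Members without overlap, 8, were 5 with upper-quartile scaling (1.22% of all genes tested). With the GC and length correction, with or without the block, they were 16 (2.74%). They were 14 with both libraries numbered 3 left out (6.85%) and 5 among the 42 of little shared sequence (1.63% with all 8 libraries). With 1 library left out they were 8 to 17, with 17 without KRT19 replicate 1 (3.91%, and 2.54% to 3.25% without each other library). Members at an unadjusted p under 0.05, 18, were 11 to 19 with 1 library left out, where 2.18% (without EV replicate 4) to 4.87% (without KRT19 replicate 1) of all genes were higher at such a p. For other assembly factors the number, 14, was 7 to 21, with 9 without EV replicate 3 (2.21% of all genes), 7 without EV replicate 4 (2.18%), 7 without KRT19 replicate 3 (2.49%) and 21 without KRT19 replicate 1 (4.87%). The median of the 60 members ran from 0.080 to 0.11 with 1 library left out, and was 0.078 with upper-quartile scaling and 0.066 with both libraries numbered 3 left out.

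The replicate numbers gave no pairing, since deviations of same-numbered libraries correlated at -0.11, -0.024, -0.16 and 0.057 over genes. With the replicate block 9 members and 6 other assembly factors were higher at an unadjusted p under 0.05, against 1.56% of all genes tested.

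Of 31 named results, 24 kept their direction throughout. With both libraries numbered 3 left out the log2 fold changes of NHP2, PWP2 and IMP3 were 0.014, 0.066 and 0.0075, and with limma-voom that of RIOK2 was 0.016. With 1 library left out FBL ran from -0.015 to 0.072, NOP10 from -0.022 to 0.13, HEATR1 from -0.035 to 0.029, NHP2 from -0.077 to 0.0078, PWP2 from -0.16 to 0.057, IMP3 from -0.074 to 0.014 and RIOK2 from -0.087 to 0.034. Depth left only NOP2 too low to compare.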
